A study of Homo sapiens with 6 samples.

Results

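The genes described here encode the presentation of peptides by MHC class I, and they were followed in RNA-Seq of C4-2B prostate cancer cells that had acquired resistance to enzalutamide. They were 9 genes chosen by symbol, HLA-B, HLA-C, HLA-E, HLA-F, B2M, TAP1, TAP2, TAPBP and NLRC5, out of 58024 genes in the deposited table, and all 9 passed the filter on low values that 24468 genes passed. C4-2B (C42-B in the labels) is a human line that descends from LNCaP cells through xenografts in castrated mice. The 3 parental libraries came from cells passaged in the vehicle, also over at least 6 months. The vehicle is given as 1% DMSO in the labels, while the study's methods cap it at a lower concentration. The 3 enzalutamide resistant libraries came from the surviving cells of the same line, pooled after passage in 1 to 20 µM enzalutamide, an androgen receptor antagonist, over at least 6 months and then kept in 5 µM. The extraction protocol names 10 µM enzalutamide at harvest, and whether the parental cells also received it is not clear from its wording. Both groups are derived from a single line, the labels do not say that libraries came from separate cultures, and the p values therefore measure the spread between libraries.

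MHC class I molecules display peptides from inside the cell on its surface, where cytotoxic T cells read them. A polymorphic heavy chain pairs with the light chain beta-2 microglobulin in the endoplasmic reticulum. Peptides made by the proteasome are pumped in by the TAP transporter, a dimer of TAP1 and TAP2, and tapasin holds the empty heavy chain beside this transporter until a peptide has bound. Interferon gamma raises most of these genes together, and NLRC5 is a transactivator that acts on class I promoters. Class I presentation is often lowered in tumours, prostate cancer included.

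The promoters of the class I genes are shown first, because the Y box marked there is bound by a factor whose subunits are named below. RefSeq promoter windows (GRCh38.p14, from 250 bases before to 50 bases after the start) were found for 7 of the 9 members, and HLA-E and NLRC5 were without an entry. The stretches from 220 to 41 bases before the start are at chr6:31357220-31357399 (minus strand) for HLA-B, chr6:31272133-31272312 (minus strand) for HLA-C, chr6:29723214-29723393 (plus strand) for HLA-F, chr15:44711297-44711476 (plus strand) for B2M and chr6:32853745-32853924 (minus strand) for TAP1. They are reference sequences, printed 5′ to 3′ on the strand of the gene, and the alleles of the cells may differ from them. Capitals mark ATTGG or its complement CCAAT (the Y box), GAAA and GAAA with any 2 bases between them (the core of interferon-stimulated and IRF elements), and GGG and TTCCC with any 2 bases between them (an NF-kB type element), on either strand.
HLA-B: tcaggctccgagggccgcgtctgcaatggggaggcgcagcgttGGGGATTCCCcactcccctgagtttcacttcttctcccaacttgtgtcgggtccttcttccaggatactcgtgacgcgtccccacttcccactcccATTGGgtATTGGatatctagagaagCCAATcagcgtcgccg
HLA-C: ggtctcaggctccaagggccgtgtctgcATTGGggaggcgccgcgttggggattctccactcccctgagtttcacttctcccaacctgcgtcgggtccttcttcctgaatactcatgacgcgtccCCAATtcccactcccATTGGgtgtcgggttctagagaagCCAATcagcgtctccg
HLA-F: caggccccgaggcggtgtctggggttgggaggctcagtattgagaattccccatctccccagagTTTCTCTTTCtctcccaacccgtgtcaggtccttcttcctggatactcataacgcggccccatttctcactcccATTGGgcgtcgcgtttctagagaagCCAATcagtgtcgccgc
B2M: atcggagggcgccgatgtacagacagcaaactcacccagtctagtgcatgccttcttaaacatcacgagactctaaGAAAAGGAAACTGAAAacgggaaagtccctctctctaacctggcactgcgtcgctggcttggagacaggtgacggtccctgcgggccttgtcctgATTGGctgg
TAP1: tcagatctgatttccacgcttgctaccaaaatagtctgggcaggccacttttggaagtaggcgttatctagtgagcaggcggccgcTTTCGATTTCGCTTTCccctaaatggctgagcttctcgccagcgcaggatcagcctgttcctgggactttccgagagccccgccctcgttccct

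Both the ATTGG and the CCAAT form were found within 100 bases before the start in the windows of HLA-B, HLA-C and HLA-F. The CCAAT nearest the start began 56 bases before the start in HLA-B and HLA-C and 57 bases before it in HLA-F. B2M held ATTGG at 49 bases before the start. TAP1 held ATTGG at 249 bases before the start, outside the stretch printed above. In all, 5 of 7 members had a Y box, while 34.6% of all 35116 windows had it. Here and below, a member was counted where any of its windows matched, and TAP1 had windows at different starts. The shares of all windows were instead taken over single windows, so the counts and shares are not on the same basis. An exact match to the interferon-type pattern was present in HLA-F, B2M, TAP1, TAP2 and TAPBP, that is in 5 of 7 members, and in 3.57% of all windows. In B2M, TAP1 and TAPBP it occurred as a pair of overlapping matches. An exact match to the NF-kB type pattern was found in HLA-B alone among the members and in 2.17% of all windows. Near matches were not counted, so HLA-B and HLA-C cannot be said to lack an interferon element. TTC and GAA with any 3 bases between them (the GAS element of interferon gamma targets) was found only in another start of TAP1 and in 7.66% of all windows.

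Facts of the whole series that bear on these values are few. The deposited values are FPKM (fragments counted per kilobase of transcript and corrected for the number mapped in a library), with no read counts. Depth was estimated from the low values that single reads give in genes having 1 transcript, at 13500000 to 20500000 reads per library when fragments are taken as 200 bases long. A read on a gene of 2000 bases is then worth 0.0271 to 0.0411 FPKM. Cells of the prostate epithelium were recognised by all 11 luminal markers, which were at 28.7 FPKM or more in every library, and 9 of the 11 were lower and 1 higher in the resistant cells. In the comparison described below, 90.9% of these markers passed its threshold, against 44.4% of all genes tested and 55.7% of protein-coding genes. SLC45A3, KLK2, TMPRSS2 and FOLH1 had log2 fold changes of −2.49, −2.49, −2.0 and −1.76, and the part of such shifts in the class I values was not tested. Leukocytes express class I genes strongly, and of 14 immune cell markers, CD2, CD3D, CD3E, FCGR3A and NKG7 were listed at 0 in all libraries. The marker values summed to 0.152 to 1.09 FPKM in parental and 0.257 to 3.04 FPKM in resistant libraries. Among the markers tested, LYZ, CD14 and ITGAM did not pass the threshold of the comparison.

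The 2 groups of libraries were compared with limma on log2(FPKM + 0.1), and a gene is called changed where its two-sided p, adjusted over all genes tested by the method of Benjamini and Hochberg (BH), was below 0.05; SE is the standard error of the log2 fold change. Of the 9 members, 8 were lower and 1, TAP1, was higher in the enzalutamide resistant cells. The median log2 fold change of the members was −1.39, while it was −0.05 over all genes tested. Calls were common in this comparison, at 44.4% of all genes tested, with 22.3% lower and 22.1% higher. Of protein-coding genes, 55.7% were called. The parental and resistant values of all 9 members did not overlap, which held for 28.1% of all genes in the lower and 26.6% in the higher direction. With 3 libraries against 3, an exact two-sided permutation test of a single gene cannot go below p = 0.1, so that the calls rest on the spread shared across genes. Since the RNA is from bulk cultures, fewer cells with a transcript and less of it per cell cannot be told apart.

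**Figure D1:**
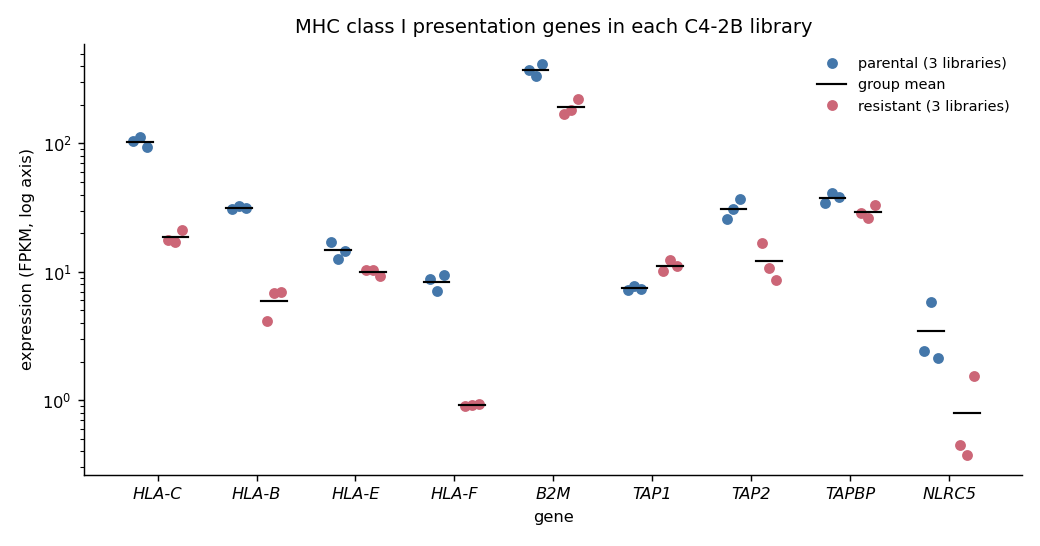
Expression of the 9 class I presentation genes in each library, in FPKM on a log axis, with 3 parental (blue) and 3 enzalutamide resistant (red) libraries per gene and a black line at the group mean. The red points lie below the blue points in every gene but TAP1, with the widest gaps in HLA-C, HLA-B and HLA-F.

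Heavy chains were lower in the resistant cells, the classical chains by more than 5-fold. HLA-C, a classical heavy chain that is also a ligand of inhibitory receptors of natural killer cells, lies on chromosome 6 (GRCh38, 31268749 to 31272130). It was at 104, 112 and 94.2 FPKM in parental and 17.7, 17.0 and 21.2 FPKM in resistant libraries. The lowest parental value thus exceeded the highest resistant value by a wide margin. This is a log2 fold change of −2.47 (SE 0.11, limma, BH-adjusted p = 2.55e-05), or 5.53-fold lower on this scale. HLA-B, the other classical heavy chain among the members (chromosome 6, 31353872 to 31367067), had 30.8, 32.4 and 31.5 FPKM in parental libraries and fell to 4.14, 6.85 and 6.94 FPKM in resistant libraries. The parental values were nearly identical, and resistant replicate 0 was the lowest. Its log2 fold change was −2.42 (SE 0.21, limma, BH-adjusted p = 2.54e-04), or 5.34-fold lower.

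The non-classical heavy chains were both lower, by 8.31-fold for HLA-F and 1.47-fold for HLA-E. HLA-F, which has few alleles and is a ligand of natural killer cell receptors, lies at the other end of the class I region (chromosome 6, 29722775 to 29738528). It was at 8.73, 7.04 and 9.44 FPKM in parental libraries and at 0.903, 0.917 and 0.928 FPKM in resistant libraries. Its log2 fold change of −3.05 (SE 0.19, limma, BH-adjusted p = 6.90e-05) corresponds to 8.31-fold lower, and with a pseudocount of 1 FPKM it was −2.29. HLA-E presents leader peptides of other class I chains to the NKG2A receptor of natural killer cells (chromosome 6, 30489509 to 30494194). It was at 17.1, 12.7 and 14.5 FPKM in parental and 10.4, 10.3 and 9.34 FPKM in resistant libraries. The gap between the groups was smaller than the spread of the parental values. The log2 fold change of HLA-E was −0.55 (SE 0.14, limma, BH-adjusted p = 0.0180), and the call was lost without parental replicate 2 (adjusted p = 0.0516) or resistant replicate 2 (adjusted p = 0.0608).

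Heavy chain genes are near copies of each other, so the authors' assignment of 50-base reads among them and to the reference alleles is uncertain, and levels of different heavy chains are compared with this limit. HLA-H, a class I pseudogene looked up after its values were seen, was at 1.80, 1.36 and 1.49 FPKM in parental and 0.150, 0 and 0.307 FPKM in resistant libraries. HLA-F-AS1, on the opposite strand of HLA-F and also looked up after the values were seen, was at 2.77, 2.63 and 3.39 FPKM in parental and 0.319, 0.198 and 0.316 FPKM in resistant libraries. The library kit keeps strand, but whether strand was used in the quantification is not stated, so reads of HLA-F and its antisense gene may not be separated.

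B2M encodes the light chain that every class I heavy chain needs to reach the surface, and it was the most abundant member in both groups. The gene lies on chromosome 15 (GRCh38, 44711358 to 44718851). It had 375, 333 and 419 FPKM in parental libraries. In the resistant libraries it was at 170, 183 and 220 FPKM. All resistant values were thus lower than the lowest parental value. B2M had a log2 fold change of −0.98 (SE 0.13, limma, BH-adjusted p = 0.00123), or 1.97-fold lower.

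The subunits of the peptide transporter moved in opposite directions. TAP1 (chromosome 6, 32845209 to 32853816) was at 7.25, 7.71 and 7.32 FPKM in parental libraries and rose to 10.1, 12.3 and 11.2 FPKM in resistant libraries. It was the only member with higher values in the resistant cells, in all 3 libraries. TAP1 changed by a log2 fold of 0.58 (SE 0.12, limma, BH-adjusted p = 0.00885), or 1.5-fold higher. TAP2 (chromosome 6, 32821833 to 32838739), the partner subunit, was at 25.7, 30.7 and 36.7 FPKM in parental and 16.7, 10.8 and 8.71 FPKM in resistant libraries. Its values were spread in both groups but did not overlap. The log2 fold change of TAP2 was −1.39 (SE 0.26, limma, BH-adjusted p = 0.00570), or 2.62-fold lower. TAP1 and TAP2 kept their directions and calls under each alternative scaling, filter and pseudocount tried and with each library left out.

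TAPBP and NLRC5 passed the threshold with less margin. TAPBP encodes tapasin (chromosome 6, 33299694 to 33314284) and was at 34.4, 40.8 and 38.5 FPKM in parental and 28.8, 26.3 and 33.1 FPKM in resistant libraries. Parental replicate 0 and resistant replicate 2 were close to each other. For TAPBP the log2 fold change was −0.37 (SE 0.12, limma, BH-adjusted p = 0.0413), and it was not past the threshold under 6 of 9 alternative settings, with adjusted p values up to 0.101, or without parental replicate 1 or 2 or resistant replicate 0 or 1. NLRC5 (chromosome 16, 56989485 to 57083531) had 2.43, 5.78 and 2.13 FPKM in parental and 0.444, 0.373 and 1.55 FPKM in resistant libraries. Parental replicate 1 and resistant replicate 2 stood above the others of their groups. NLRC5 changed by a log2 fold of −2.09 (SE 0.61, limma, BH-adjusted p = 0.0318), and by −1.28 with a pseudocount of 1 FPKM. The NLRC5 call was lost with any library but resistant replicate 2 left out, with log2 fold changes from −2.66 to −1.66 and adjusted p values up to 0.133.

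On the FPKM scale, which is per length of transcript, the order of the members changed between the groups. In the parental cells, B2M was followed by HLA-C (mean 103 FPKM), TAPBP (37.9 FPKM), HLA-B (31.5 FPKM), TAP2 (31.0 FPKM), HLA-E (14.8 FPKM), HLA-F (8.40 FPKM), TAP1 (7.42 FPKM) and NLRC5 (3.45 FPKM). The libraries of HLA-B and TAP2 overlapped, as did those of HLA-F and TAP1, so these neighbours were not separated. In the resistant cells, TAPBP (29.4 FPKM) was above HLA-C (18.6 FPKM) in all libraries, and TAP2 (12.1 FPKM) and TAP1 (11.2 FPKM) overlapped, as TAP1 did with HLA-E (9.99 FPKM). HLA-B (5.98 FPKM) was below HLA-E in every resistant library and above it in every parental library. HLA-F (0.916 FPKM) and NLRC5 (0.79 FPKM) overlapped at the lower end.

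Ratios within a library do not depend on how libraries were scaled against each other. The ratio of TAP1 to TAP2 was 0.282, 0.251 and 0.199 in parental libraries and 0.604, 1.14 and 1.28 in resistant libraries. The transporter subunits were therefore listed at near equal levels in 2 of the resistant libraries only. HLA-E relative to HLA-C was 0.144 ± 0.0268 (SD, n = 3) in parental and 0.544 ± 0.0892 in resistant cells. HLA-B relative to HLA-C was 0.307 ± 0.0242 in parental and 0.322 ± 0.0856 in resistant cells, with overlapping values. The 4 heavy chains summed to 158 ± 7.40 FPKM (SD, n = 3) in parental and 35.5 ± 2.65 FPKM in resistant cells. B2M was 2.39 ± 0.387 times this sum in parental and 5.37 ± 0.316 times in resistant cells. For the ratios of TAP1 to TAP2, HLA-E to HLA-C and B2M to heavy chains the groups did not overlap, and the exact permutation test gave its smallest two-sided value, p = 0.1, for each, which cannot pass 0.05. For HLA-B to HLA-C the exact permutation test gave p = 0.8. HLA-E took 9.37% ± 1.47 of the summed heavy chain FPKM in parental and 28.3% ± 3.58 in resistant cells, and 7.83% and 24.4% when all 17 class I HLA entries of the table, pseudogenes included, made up the sum.

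**Figure D2:**
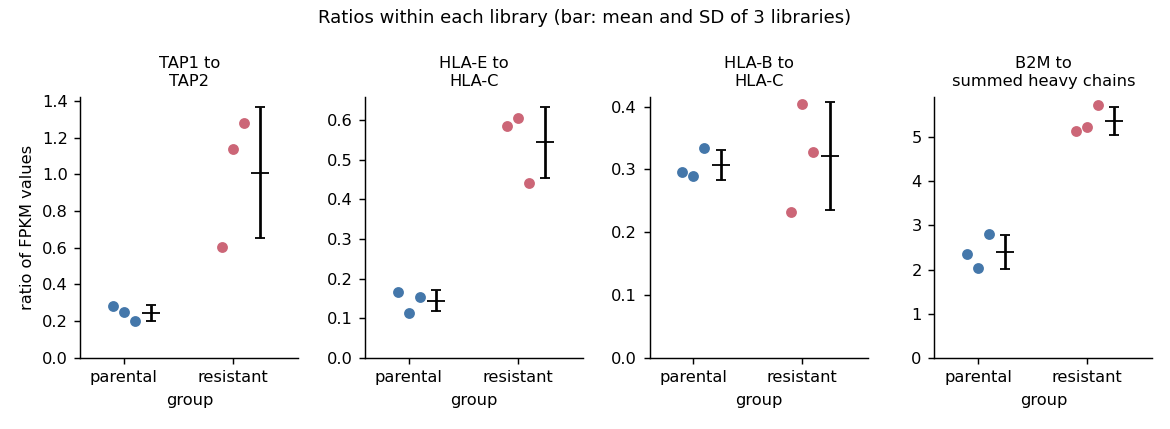
Ratios of FPKM values within each library for TAP1 to TAP2, HLA-E to HLA-C, HLA-B to HLA-C and B2M to the summed heavy chains HLA-B, HLA-C, HLA-E and HLA-F, with points for the 3 parental (blue) and 3 resistant (red) libraries and a bar for the mean and SD. The groups are apart in all panels but HLA-B to HLA-C, where the resistant values of 0.233 to 0.404 enclose the parental values.

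Genes that make, trim and load the peptides went both ways. Of 18 such genes, 4 were higher and 7 lower in the resistant cells and 7 did not pass the threshold, with a median log2 fold change of −0.09. The share called was 61.1%, against 44.4% of all genes tested and 55.7% of protein-coding genes. PSME1, a subunit of the proteasome activator that interferon induces, was at 63.5, 63.0 and 65.1 FPKM in parental and 150, 168 and 157 FPKM in resistant libraries. Its log2 fold change was 1.31 (limma, BH-adjusted p = 3.54e-05). The catalytic immunoproteasome subunits encoded beside the TAP genes, PSMB9 and PSMB8, were near the lower end of detection in the parental cells. PSMB9 was at 0.430, 0 and 0.511 FPKM in parental and 2.96, 3.21 and 3.25 FPKM in resistant libraries. PSMB8 was at 1.22, 0.274 and 0.622 FPKM in parental and 2.18, 1.56 and 2.28 FPKM in resistant libraries. Both passed the threshold as higher (limma, BH-adjusted p = 0.00978 and 0.0435). The PSMB8 call was lost under 3 of 9 alternative settings and without any single library but parental replicate 0, and the PSMB9 call with a pseudocount of 0.01 FPKM and without resistant replicate 0 or 2. PSMB10, the remaining subunit of this kind, went the other way, from 46.5 ± 12.5 to 22.4 ± 1.88 FPKM (SD, n = 3 each), a call lost without resistant replicate 0. PSMB8, PSMB9 and PSMB10 were named here after their values were seen.

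Chaperones of the loading complex were lower or did not pass the threshold. PDIA3, the oxidoreductase that is bound to tapasin, fell from 367 ± 23.7 to 147 ± 15.3 FPKM (SD, n = 3 each), with −1.32 on the log2 scale (limma, BH-adjusted p = 1.35e-04). UGGT1, which returns misfolded or empty class I chains for another round of loading, fell from 39.4 ± 1.63 to 14.6 ± 2.15 FPKM. CALR, the chaperone calreticulin that holds the heavy chain in this complex, fell from 1036 ± 49.4 to 686 ± 2.86 FPKM. Calnexin, encoded by CANX, had 547 ± 44.9 FPKM in parental and 573 ± 20.0 FPKM in resistant cells and did not pass the threshold, nor did the peptide-trimming enzyme ERAP1, with 6.18 ± 0.649 and 6.83 ± 0.401 FPKM. CANX and ERAP1 were named after their values were seen.

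Factors that bind class I promoters were also mixed. Of 13 genes, 3 were higher and 3 lower, with a median log2 fold change of −0.24, and without parental replicate 0 only 3 of the 13 were called. The share called was 46.2%, against 44.4% of all genes tested and 55.7% of protein-coding genes. RFX5, the DNA-binding part of the RFX complex through which NLRC5 acts, was at 50.4, 48.0 and 61.7 FPKM in parental and 24.3, 17.3 and 24.1 FPKM in resistant libraries. RFX5 had a log2 fold change of −1.29 (limma, BH-adjusted p = 0.00130). NFYA and NFYB, subunits of the factor that binds the Y box, rose by 0.80 and 0.63 on the log2 scale. NFYC, the remaining subunit of this factor, had 45.9 ± 12.7 FPKM in parental and 26.4 ± 8.47 FPKM in resistant cells (SD, n = 3 each), a log2 difference of −0.81 that did not pass the threshold (limma, BH-adjusted p = 0.0631). NFYC was named after its values were seen.

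Of 6 genes of interferon gamma receptor signalling, 2 were higher and 1 lower, with a median log2 fold change of 0.45. The share called was 50.0%, against 44.4% of all genes tested and 55.7% of protein-coding genes. The receptor chains were both higher, IFNGR2 from 9.47 ± 0.883 to 20.4 ± 1.32 FPKM and IFNGR1 from 8.01 ± 0.383 to 12.2 ± 0.559 FPKM (SD, n = 3 each). PTPN2, a phosphatase that dampens this pathway, had 25.5 ± 2.5 FPKM in parental and 18.6 ± 2.55 FPKM in resistant cells. It was the only lower call of these 6 genes, and it was lost under quantile normalization, median of ratios scaling, no variance trend and the replicate block, and without any single library but resistant replicate 0. The kinase JAK2 had 4.13 ± 0.462 FPKM in parental and 5.35 ± 1.44 FPKM in resistant cells and did not pass the threshold.

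**Figure D3:**
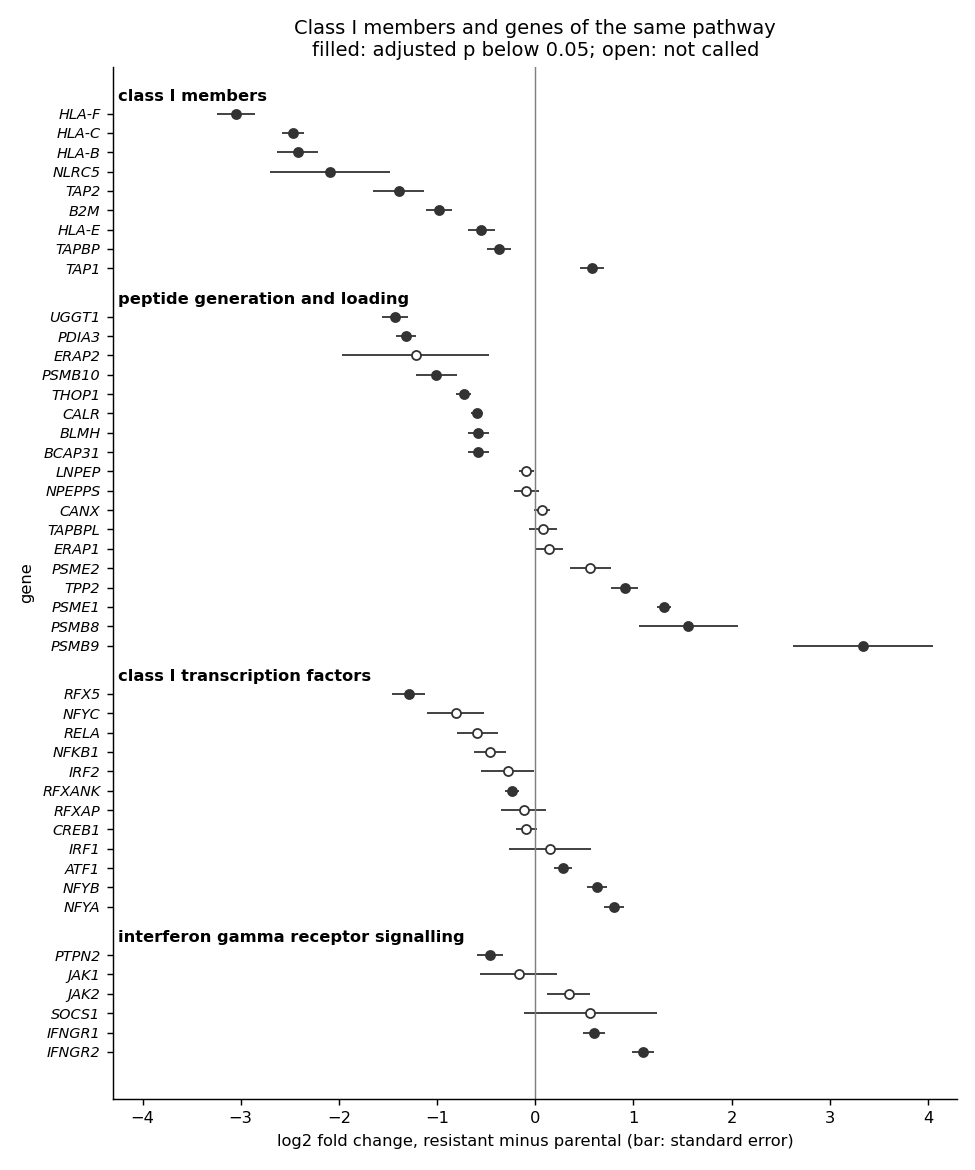
Log2 fold change of resistant against parental cells on the log2(FPKM + 0.1) scale for the 9 class I members and the genes of 3 related lists that are reported here, with bars for the standard error and filled points for genes with an adjusted p below 0.05. The class I members lie from −3.05 (HLA-F) to 0.58 (TAP1), with 8 of 9 on the left of 0, and the other lists are spread on both sides.

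Of the members, 7 lie on chromosome 6 within an interval of 3.59 Mb from HLA-F to TAPBP (GRCh38, 29722775 to 33314284). This interval was used to see how other genes there behaved. It held 168 tested genes, of which 42 were higher and 37 lower, with a median log2 fold change of 0.01. Without the members, 41 were higher and 31 lower of 161, with a median of 0.03. On the rest of chromosome 6, 306 were higher and 188 lower of 1038 genes, with a median of 0.14. The shares called were 47.0% in the interval, 44.7% without the members and 47.6% on the rest, against 44.4% of all genes tested. The largest falls among called genes of the interval with a mean of 1 FPKM or more were HCG27, a long non-coding gene, from 3.10 ± 0.344 to 0.158 ± 0.144 FPKM (SD, n = 3 each), the unnamed transcript XXbac-BPG252P9.10, from 4.84 ± 0.684 to 0.327 ± 0.121 FPKM, and HLA-F itself. The 3 largest rises chosen in the same way were in MHC class II genes. HLA-DQB2 was listed at 0 in all parental libraries and was at 12.6, 11.2 and 11.1 FPKM in resistant libraries, so no fold change is given. HLA-DMB rose from 0.214, 0 and 0 FPKM to 9.27, 12.1 and 11.5 FPKM, and HLA-DQB1 from 2.18, 0.579 and 0.469 FPKM to 53.8, 68.8 and 55.9 FPKM.

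**Figure D4:**
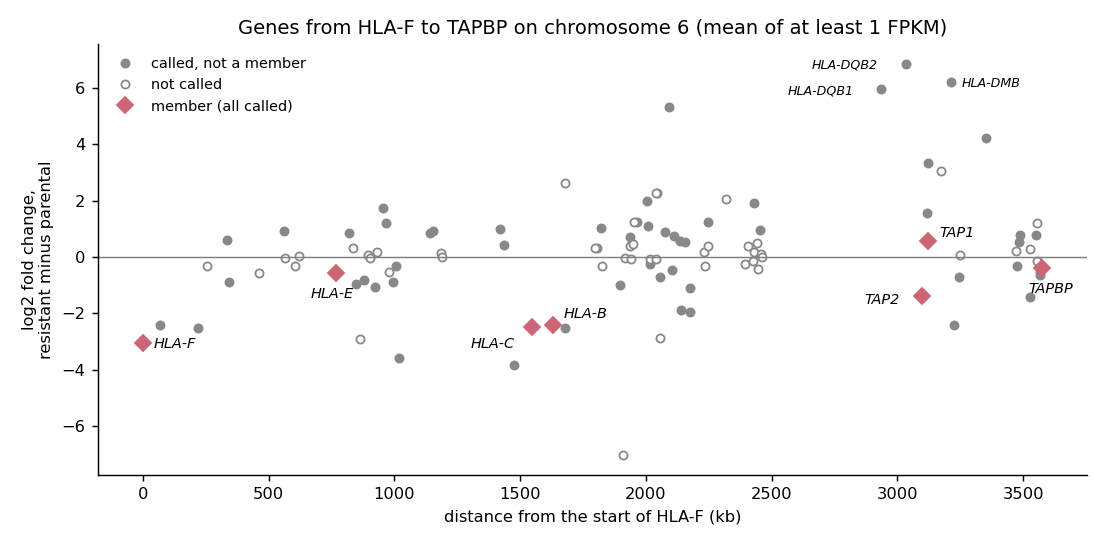
Fitted log2 fold change of resistant against parental cells on the log2(FPKM + 0.1) scale, plotted against the distance in kb from the start of HLA-F, for genes from HLA-F to TAPBP with a mean of at least 1 FPKM. Members are red diamonds, and the other genes are grey, filled where called, with HLA-DQB2, HLA-DQB1 and HLA-DMB at the top and genes on both sides of 0 between the members.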

How the data were processed

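RNA-Seq libraries of C4-2B parental (3) and enzalutamide resistant (3) cells were analysed from a single deposited table. The authors trimmed single-end reads with TrimGalore, aligned them with STAR to GRCh38 and GENCODE annotation and made FPKM values with Cufflinks, per the paper's methods. The submitters' processing notes name the mouse build mm10 and Trimmomatic 0.27 instead, while the table lists human genes at GRCh38 positions. The deposited table names no unit, and its values were taken as FPKM. The scaling between libraries is not given in the sources used here. Multi-mapped reads among HLA genes and alleles that differ from the reference could lower or shift single values.

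Gene positions were taken from GENCODE v44 (56980 identifiers matched), and 28 symbols that had become dates were restored. After a filter that kept genes whose mean reached 0.1 FPKM, log2(FPKM + 0.1) was fitted over all genes by limma 3.58.1 (R 4.3.3), with a mean-variance trend and Benjamini-Hochberg (BH) adjustment. The code was tested on simulated data. Fold changes understate low genes. Lists were described by counts and medians only. Named were all members, in each list the 4 genes of lowest adjusted p and, in the chromosome 6 interval, the 3 called genes with the largest change each way at 1 FPKM or more. Some genes covered by this rule are not reported here. Members and lists were chosen with earlier results of these data known. Python 3.11.15 and pandas 2.3.3 were used. Alternatives covered the pseudocount, the filter, the scaling, the trend, a replicate block and each library left out.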

Additional observations from a re-analysis of the deposited data

How the results depend on the processing

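HLA-B, HLA-C, HLA-F, B2M, TAP1 and TAP2 kept direction and call under all 9 alternative settings and with each library left out. Leaving out each library, the log2 fold change ranged from −2.54 to −2.18 for HLA-B, −2.56 to −2.40 for HLA-C, −3.18 to −2.97 for HLA-F, −1.08 to −0.90 for B2M, 0.51 to 0.65 for TAP1, −1.65 to −1.18 for TAP2, −0.65 to −0.44 for HLA-E, −0.46 to −0.29 for TAPBP and −2.66 to −1.66 for NLRC5, and 6 to 8 of the 9 members were called. TAPBP did not pass the threshold with no filter on low values (−0.37), quantile normalization (−0.29), a common sum over protein-coding genes (−0.33), median of ratios scaling (−0.27), no variance trend (−0.37) or the replicate block (−0.37). NLRC5 did not pass it with the replicate block (−2.09, limma, BH-adjusted p = 0.0731). The replicate block gave 9463 called genes against 10868 without it. Deviations of same-numbered libraries correlated at −0.00301 to 0.0165 across 24468 genes. This cannot decide whether they shared a culture or preparation, which the labels do not state. Of the lists, the stress ligands had 3 called genes with a minimum mean of 1 FPKM, where only 3 were tested, and 3 to 7 transcription factors were called with a library left out. The immune cell markers had 0 called genes by limma with a pseudocount of 1 FPKM (1 at an unadjusted p below 0.05) or with the replicate block (also 1), and 0 to 1 with a library left out, while a minimum mean of 1 FPKM left none to test. The single lower call among the interferon gamma receptor genes, PTPN2, was lost under 4 of 9 settings and with 5 of 6 libraries left out. The cause of these differences was not tested. Estimated depths were 12800000 to 19500000 reads with fragments of 150 bases and 15500000 to 23400000 with 300 bases. The table holds no counts, so no counting interval was possible.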

Other observations

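MHC class II genes were mostly higher in enzalutamide resistant C4-2B cells, at uneven levels. Of 12 genes of MHC class II presentation, which professional antigen presenting cells normally use, 9 were tested, 5 were higher and 1 lower, with a median log2 fold change of 1.70. The share called was 66.7%, against 44.4% of all genes tested and 55.7% of protein-coding genes. Besides HLA-DMB and HLA-DQB1, HLA-DRB1 passed the threshold, at 0.0450, 0 and 0.135 FPKM in the parental and 1.01, 0.698 and 1.34 FPKM in the resistant libraries. HLA-DMA, whose product pairs with that of HLA-DMB, went the other way, from 5.17, 4.58 and 7.24 FPKM to 1.12, 0.841 and 0.960 FPKM (limma, BH-adjusted p = 5.05e-04). HLA-DQA1, the partner of HLA-DQB1, was at 0 in each parental library and at 0.0109, 0.118 and 0.261 FPKM in the resistant libraries, and the invariant chain CD74 was at 0.173, 0.161 and 0.207 FPKM in parental and 0.375, 0.954 and 0.542 FPKM in resistant libraries and did not pass the threshold. CIITA, the transactivator of class II genes, was at 0.271, 0 and 0.254 FPKM in the parental and 0.187, 0 and 0.0448 FPKM in the resistant libraries. HLA-DQA1, CD74 and CIITA were named after their values were seen. The summed immune cell markers were between 0.152 and 3.04 FPKM in all libraries, and their part in these values was not tested.

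Most tested ligands of NKG2D, an activating receptor of natural killer and T cells, were lower in the resistant cells. Of 8 such genes, 7 were tested, and 5 were lower, with a median log2 fold change of −2.17. MICB went the other way, from a mean of 0.127 FPKM in parental to 0.308 FPKM in resistant cells. RAET1E had means of 0.204 and 0.0346 FPKM. Neither MICB nor RAET1E passed the threshold, and both were named after their values were seen. The share called was 71.4%, against 44.4% of all genes tested and 55.7% of protein-coding genes. MICA, which lies beside HLA-B, fell from 11.5, 12.3 and 12.6 FPKM to 2.26, 2.18 and 1.75 FPKM, a log2 fold change of −2.51 (limma, BH-adjusted p = 6.93e-05). ULBP3, ULBP1 and ULBP2, on another arm of the same chromosome, had log2 fold changes of −3.33, −2.17 and −2.53, from means of 2.80, 1.71 and 1.34 FPKM in the parental cells. Only 3 of these genes were at a mean of 1 FPKM or more over all libraries, and all 3 of them were lower. Among 6 tested class I-like genes, 2 were higher and 2 lower, with a median log2 fold change of −0.28 and a share called of 66.7%. FCGRT, the heavy chain of the neonatal Fc receptor, which also pairs with B2M, rose from 0.592, 0.442 and 0.320 FPKM to 18.1, 18.9 and 18.8 FPKM, and PROCR, the endothelial protein C receptor, from 0.876 ± 0.198 to 5.48 ± 1.08 FPKM (SD, n = 3 each). AZGP1, a secreted class I-like protein of the prostate, fell from 154 ± 18.5 to 23.9 ± 3.87 FPKM, and the iron regulator HFE from 4.46 ± 0.143 to 1.39 ± 0.621 FPKM.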
